A study of Mus musculus with 86 samples.

Results

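The comparison is that of postnatal day 10 (P10) testis RNA between homozygous Btbd18 knockout mice and heterozygous mice, taken as the knockout and heterozygous P10 columns of the deposited testis count table with every feature in it. It comprises 6 of the 86 samples of the series, 3 knockout and 3 heterozygous libraries of polyadenylated RNA from whole testes. Both genotypes come from a C57BL/6 (B6) X 129/SvJ hybrid background, and the heterozygotes that serve as controls carry 1 disrupted copy of the gene themselves. The labels describe neither the allele nor whether a library is 1 animal, and the p-values therefore reflect variation among libraries, part of which may be technical. Testes of the same genotypes at P14 (2 libraries a genotype) and P18 (3 a genotype), and P10 small RNA with and without enrichment for piRNA (2 libraries a genotype each), are used only where they bear on P10. The 6 libraries hold 6578653 to 7870398 counts over 24276 features. Of these, 16334 passed a count filter over all 20 testis libraries of the table and were tested. Among them were 99 of the 100 intergenic and 108 of the 114 genic piRNA loci. A feature could pass the filter through a later age alone, so some tested features had few counts at P10.

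Btbd18 encodes a nuclear protein with a BTB domain, a fold by which transcription regulators pair. piRNAs are small RNAs of germ cells that guide PIWI proteins to transposons and other transcripts. They are cut from long precursors made at set loci, and in mouse testis a pre-pachytene set of loci is used in early germ cells while a larger, mostly intergenic pachytene set is switched on when spermatocytes reach the pachytene stage of meiosis. A mouse testis at P10 holds Sertoli cells, interstitial cells, spermatogonia and the first cells to enter meiosis, and it is reached before pachytene spermatocytes appear.

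The promoters of Btbd18 and of 3 germline genes are printed here for reference, and no test below used them. The 3 (Rbm46, Dazl and Smc1b) are among the genes that lay higher in knockouts with the smallest p-values, and none of the 3 passed the adjusted test. Each runs from 250 bases before to 50 bases after the annotated start, is read 5′ to 3′ on the strand of the gene, and comes from RefSeq on build GRCm38.p6. They lie at chr2:84658829-84659128 (plus strand, Btbd18), chr3:82876434-82876733 (minus strand, Rbm46), chr17:50293571-50293870 (minus strand, Dazl) and chr15:85131908-85132207 (minus strand, Smc1b). Capitals mark matches on either strand to 3 motifs, CACGTG (the E-box), GCGGGAA (an E2F type site) and CNCCTCAG (an element tied to the meiotic initiator STRA8), none of which overlapped another here.
Btbd18: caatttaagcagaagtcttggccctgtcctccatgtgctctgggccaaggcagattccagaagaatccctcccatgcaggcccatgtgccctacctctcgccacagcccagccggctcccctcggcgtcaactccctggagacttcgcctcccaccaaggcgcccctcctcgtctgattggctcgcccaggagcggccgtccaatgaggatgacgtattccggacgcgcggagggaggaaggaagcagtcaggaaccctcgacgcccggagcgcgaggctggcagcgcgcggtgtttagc
Rbm46: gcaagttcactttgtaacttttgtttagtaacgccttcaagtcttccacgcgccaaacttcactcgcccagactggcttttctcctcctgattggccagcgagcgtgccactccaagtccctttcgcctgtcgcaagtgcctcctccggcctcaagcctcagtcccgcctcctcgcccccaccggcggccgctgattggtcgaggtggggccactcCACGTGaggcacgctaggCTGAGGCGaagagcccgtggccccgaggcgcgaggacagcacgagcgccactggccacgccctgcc
Dazl: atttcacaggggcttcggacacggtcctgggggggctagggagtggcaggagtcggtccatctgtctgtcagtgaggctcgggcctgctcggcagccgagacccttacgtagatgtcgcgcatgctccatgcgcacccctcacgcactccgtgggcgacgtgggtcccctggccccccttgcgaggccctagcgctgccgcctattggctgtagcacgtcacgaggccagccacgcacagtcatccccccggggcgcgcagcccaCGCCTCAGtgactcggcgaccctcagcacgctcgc
Smc1b: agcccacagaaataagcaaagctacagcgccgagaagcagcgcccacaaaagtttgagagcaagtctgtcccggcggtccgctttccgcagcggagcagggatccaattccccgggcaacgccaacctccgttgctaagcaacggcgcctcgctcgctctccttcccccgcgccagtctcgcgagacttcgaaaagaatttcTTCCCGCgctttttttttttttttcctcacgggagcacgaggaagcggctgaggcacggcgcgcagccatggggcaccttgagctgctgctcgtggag
The Rbm46 window holds 1 E-box and 1 CNCCTCAG, the Dazl window 1 CNCCTCAG and the Smc1b window 1 GCGGGAA, while the Btbd18 window holds no match to the 3. Of all 32851 promoter windows of the same length, 7.15% hold CACGTG, 4.6% hold GCGGGAA and 7.94% hold CNCCTCAG. These are matches of letters and not evidence of binding.

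The targeted gene was checked first. Btbd18 had 22, 20 and 14 counts in knockout libraries, against 108, 100 and 113 counts in heterozygous libraries. No knockout library came near a heterozygous one, and a small number of counts stayed in every knockout. As a level, this is 2.21 ± 0.365 CPM (the count scaled to a common library size) in knockouts and 13.8 ± 0.873 CPM in heterozygotes (SD, n = 3 each). The log2 fold change of knockout over heterozygous was -2.63 ± 0.19 (± SE here and below), with an adjusted p of 2.17e-07 by edgeR's quasi-likelihood test. The counts cannot tell a transcript of the disrupted allele from other reads assigned to the gene.

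Btbd18 was also the one feature of all 16334 whose genotype difference passed the test (0.00612% of features tested, 0 higher and 1 lower in knockouts). DESeq2, run on the same counts, called 13 (0.0827%), 7 higher and 6 lower. Without regard to multiple testing, 1226 features had an unadjusted p below 0.05 (7.51%), 626 higher in knockouts (3.83%) and 600 lower (3.67%). All 3 knockout libraries lay above all 3 heterozygous ones for 996 features (6.1%) and below them for 1016 (6.22%). Pairs of libraries of 1 genotype correlated at 0.9896 to 0.9917 over log2 CPM and pairs across genotypes at 0.9884 to 0.9908, so the 2 ranges overlapped. After Btbd18 the smallest adjusted p was 0.112, and the genes described below are therefore given as levels and differences that did not pass.

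**Figure D1:**
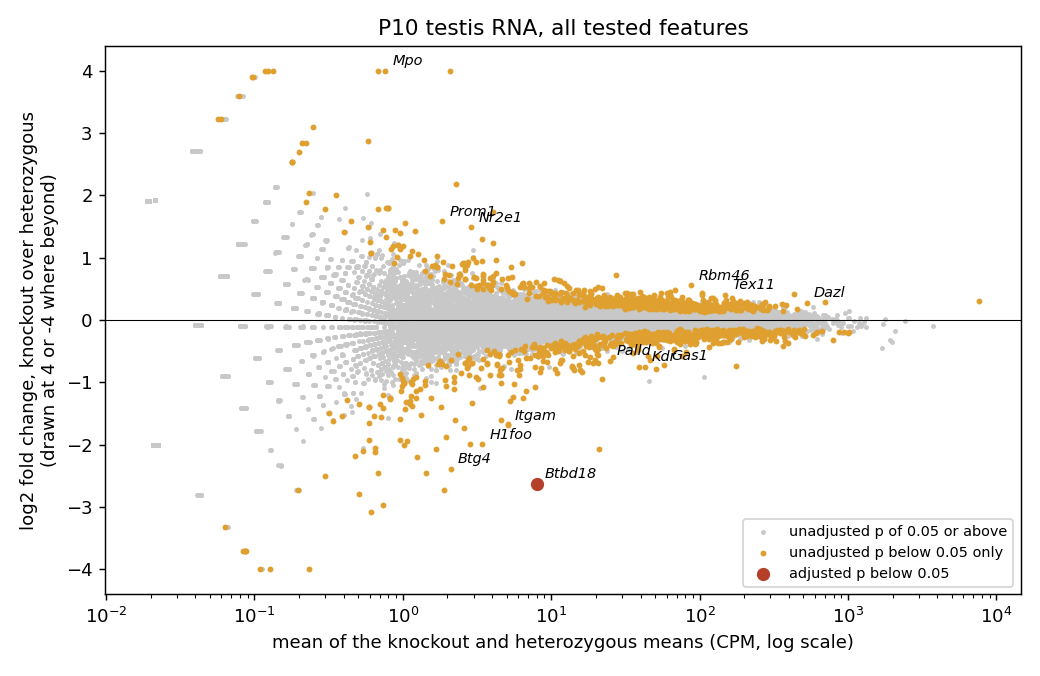
Genotype difference of each tested feature in P10 testis (vertical axis, log2 fold change of knockout over heterozygous) against its level (horizontal axis, CPM on a log scale). Each point is 1 of 16334 features; Btbd18, at -2.63, is the single one with an adjusted p below 0.05, and the 1226 with an unadjusted p below 0.05 lie on both sides of 0.

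Of the 12 features that lay higher in knockouts with the smallest p-values, Rbm46, Tex11, Dazl and Smc1b are known from germ cells. Rbm46, which encodes an RNA-binding protein that mouse germ cells need for meiosis, stood at 105, 99.9 and 110 CPM in knockouts, against 78.6, 63.3 and 72.2 CPM in heterozygotes. The genotypes did not overlap, and the log2 fold change was 0.56 ± 0.11 (adjusted p = 0.191). DESeq2 and a fit with no filter on low counts did call Rbm46. Tex11, an X-linked gene whose product takes part in chromosome synapsis and crossing over, stood at 181, 155 and 175 CPM in knockouts, against 142, 115 and 127 CPM in heterozygotes (0.41 ± 0.084, adjusted p = 0.290). Dazl, which encodes an RNA-binding protein of germ cells, stood at 593, 553 and 588 CPM in knockouts, against 481, 467 and 482 CPM in heterozygotes (0.28 ± 0.067, adjusted p = 0.425). Smc1b, the cohesin subunit of meiotic chromosomes, stood at 199, 178 and 175 CPM in knockouts, against 148, 128 and 158 CPM in heterozygotes (0.35 ± 0.087, adjusted p = 0.425). In each of these the lowest knockout library was above the highest heterozygous library. DESeq2 called Tex11 and Dazl, and did not call Smc1b.

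The other 8 of the 12 higher features with the smallest p-values had adjusted p-values of 0.191 to 0.425, and in none did the genotypes overlap. Rps6ka6, an X-linked kinase gene that DESeq2 called, stood at 69.1 ± 2.45 CPM in knockouts and 50.9 ± 1.97 CPM in heterozygotes (0.44). Kif11, the mitotic kinesin that separates spindle poles, stood at 117 ± 7.15 CPM in knockouts and 94.2 ± 6.86 CPM in heterozygotes (0.32). Tktl1, an X-linked transketolase-like gene, stood at 86.3 ± 1.4 CPM in knockouts and 67.1 ± 11.8 CPM in heterozygotes (0.37), and Siah1b, an X-linked ubiquitin ligase gene, at 52.1 ± 0.417 CPM in knockouts and 40.7 ± 1.67 CPM in heterozygotes (0.36). Pdgfc, a growth factor gene, had a log2 fold change of 0.45, and Ndufs7, a subunit gene of mitochondrial complex I, of 0.34. The largest folds belonged to 2 genes of low level. Nr2e1, an orphan nuclear receptor gene, had 29, 33 and 44 counts in knockouts, against 10, 12 and 13 counts in heterozygotes (1.49 ± 0.31). Prom1, the gene of the surface protein CD133, had 13, 31 and 25 counts in knockouts, against 7, 9 and 5 counts in heterozygotes (1.59 ± 0.40), and DESeq2 called it.

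**Figure D2:**
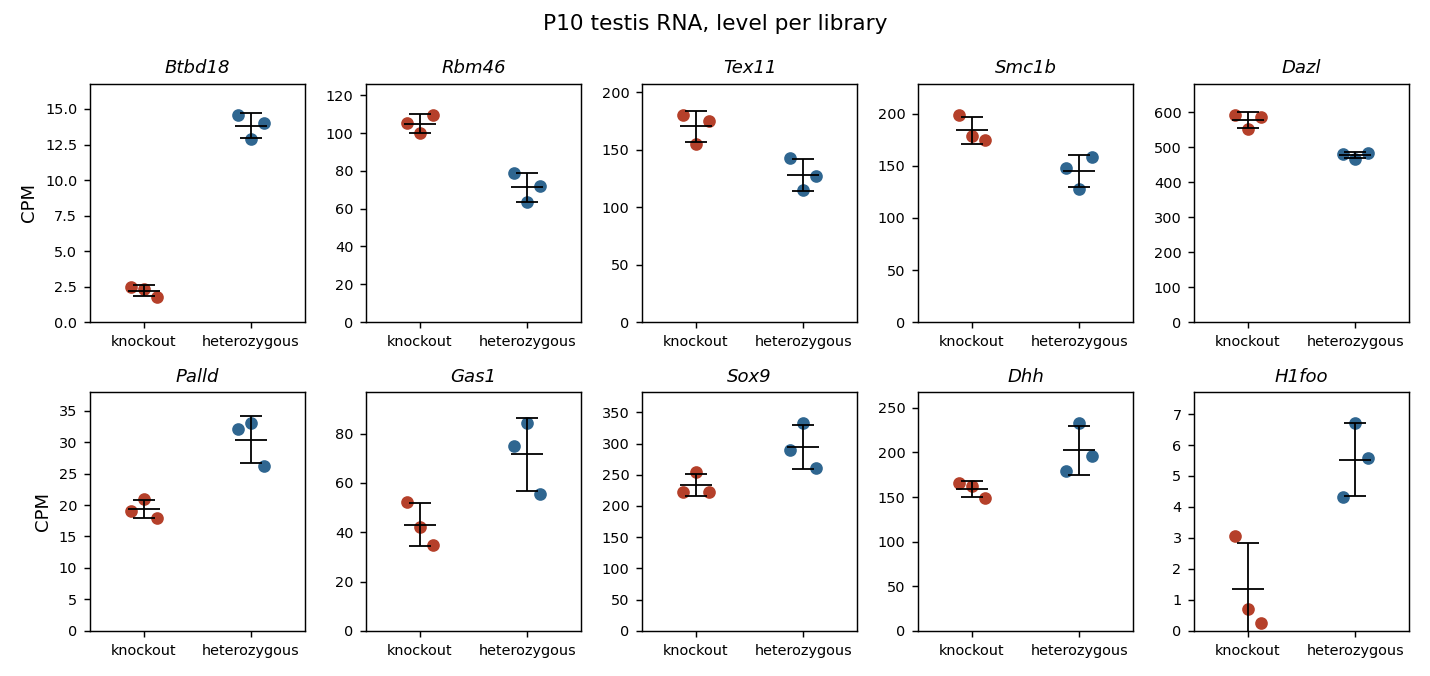
Level of 10 genes in each P10 testis library (vertical axis, CPM; knockout left, heterozygous right; points are libraries, bars the mean ± SD of 3, the lower bar of H1foo reaching 0). Btbd18 stands at 1.8 to 2.49 CPM in knockouts and 12.9 to 14.6 CPM in heterozygotes, while the other genes differ by smaller steps that did not pass the test.

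Among the features that lay lower in knockouts, Palld, the gene of the actin-bundling protein palladin, had the smallest p after Btbd18. It stood at 19.1, 20.9 and 18 CPM in knockouts, against 32, 33 and 26.1 CPM in heterozygotes (-0.65 ± 0.11, adjusted p = 0.112). Gas1, a membrane protein that binds hedgehog ligands, stood at 52.1, 42.1 and 34.9 CPM in knockouts, against 75.1, 84.1 and 55.3 CPM in heterozygotes (-0.73 ± 0.15, adjusted p = 0.309). DESeq2 called both, as did the fit without heterozygous replicate 3. Obsl1, a cytoskeletal adaptor gene that DESeq2 called too, stood at 311 ± 21.9 CPM in knockouts and 415 ± 62 CPM in heterozygotes (-0.41). Osr1, a transcription factor gene of urogenital mesenchyme, stood at 14.7 ± 0.377 CPM in knockouts and 23.7 ± 2.93 CPM in heterozygotes (-0.68). Hmcn1, an extracellular matrix gene, had a log2 fold change of -0.48 and Jdp2, a bZIP repressor gene, of -0.83.

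In other genes of this direction, single libraries stood apart from their group. Itgam, an integrin of myeloid cells, had 17, 31 and 13 counts in knockouts, against 44, 34 and 105 counts in heterozygotes, the last of them more than either of the others. Kdr, a receptor of endothelial cells, stood at 30.7, 33.5 and 31.2 CPM in knockouts, against 39.3, 74.3 and 46.8 CPM in heterozygotes (-0.75 ± 0.18). Wdfy1, an endosomal adaptor gene, overlapped between genotypes, with 31.9, 35 and 41 CPM in knockouts, against 63, 58.8 and 38.1 CPM in heterozygotes. H1foo and Btg4 are known from oocytes, where they encode a linker histone and a regulator of maternal mRNA decay. H1foo had 27, 6 and 2 counts in knockouts, against 32, 52 and 45 counts in heterozygotes. Btg4 had 15, 2 and 0 counts in knockouts, against 23, 26 and 34 counts in heterozygotes. In both, knockout replicate 1 stood far above the other 2 knockout libraries, and both were called lower in the fit without that library, which left 4 calls in all.

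Genes that build the meiotic chromosome lay higher in knockouts by small amounts that did not pass the test. Of the 15 tested members of the list of chromosome axis and synaptonemal complex genes, 15 had a positive log2 fold change, 8 had an unadjusted p below 0.05 in that direction (beside 3.83% of all features) and 0 in the other, and 0 passed the adjusted test. Their median was 0.35, against 0.00 over all features. The level summed over the list was 1362, 1071 and 1042 CPM in knockouts, against 995, 860 and 915 CPM in heterozygotes, so the groups did not overlap and knockout replicate 1 was the highest. Without knockout replicate 1 the median was 0.11, and over the 6 fits that leave out 1 library it ran from 0.11 to 0.41. Hormad2, which marks unsynapsed axes, stood at 8.04, 7.28 and 6.42 CPM in knockouts, against 5.41, 4.25 and 5.45 CPM in heterozygotes (0.53 ± 0.18, adjusted p = 0.573).

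Genes of recombination and of telomere attachment gave like counts, with 31 of 32 positive, a median of 0.30, and 9 with an unadjusted p below 0.05 in the positive direction and 0 in the negative, beside 3.83% and 3.67% of all features. The median was 0.12 without heterozygous replicate 2 and 0.16 without knockout replicate 1. Hfm1, a helicase gene of crossing over, had 431, 236 and 201 counts in knockouts, against 173, 132 and 175 counts in heterozygotes (0.73 ± 0.19, adjusted p = 0.465). Its highest value was again that of knockout replicate 1. Tex15, which takes part in strand exchange and in silencing of transposons, stood at 496, 465 and 513 CPM in knockouts, against 409, 312 and 387 CPM in heterozygotes (0.41 ± 0.11, adjusted p = 0.465). Rec114, listed as 2410076I21Rik and needed for DNA breaks, had 79, 77 and 60 counts in knockouts, against 32, 46 and 54 counts in heterozygotes (0.60 ± 0.20, adjusted p = 0.565). None of the 32 passed the adjusted test.

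Of the proteins that make and use piRNA, 21 of 24 tested genes had a positive log2 fold change, the median was 0.19, and 4 against 0 had an unadjusted p below 0.05 (beside 3.83% and 3.67% of all features). The median was 0.11 without heterozygous replicate 2 and 0.12 without knockout replicate 3. Rnf17, a tudor-domain gene of germ granules, stood at 139 ± 10.4 CPM in knockouts and 109 ± 11.2 CPM in heterozygotes (0.35 ± 0.13). Ddx4, the germline helicase and a general marker of germ cells, stood at 200, 225 and 235 CPM in knockouts, against 173, 185 and 192 CPM in heterozygotes (0.26 ± 0.11). Tdrd9, a helicase of the nuclear piRNA pathway, had a log2 fold change of 0.25 ± 0.11. The adjusted p was 0.589 to 0.639 in these 3 genes. Of genes of meiotic entry and commitment, 15 of 18 were positive with a median of 0.092, and 3 against 0 had an unadjusted p below 0.05 (beside 3.83% and 3.67% of all features). The median was 0.045 without heterozygous replicate 2 and 0.052 without knockout replicate 1. The 3 genes were Dazl, Ythdc2 (0.21) and Meioc (listed as Gm1564, 0.35), of which the last 2 belong to an RNA-binding complex that moves germ cells out of mitotic division.

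Dividing cells and spermatogonia gave smaller values. Of 25 cell division genes, 24 were positive with a median of 0.11 (0.043 without knockout replicate 2), 6 against 0 had an unadjusted p below 0.05 (beside 3.83% and 3.67% of all features), and Top2a, a DNA topoisomerase gene (0.26 ± 0.081), and Ccnb1, a mitotic cyclin gene (0.32 ± 0.10), were the next after Kif11. Undifferentiated spermatogonia genes were 8 positive and 14 negative of 22 (median -0.049, and 0.034 without heterozygous replicate 2), with Taf4b, a TFIID subunit gene of germ cells, at 132 ± 2.01 CPM in knockouts and 112 ± 11.1 CPM in heterozygotes (0.24 ± 0.070), and the GDNF receptor Gfra1 at 29.9 ± 5.17 CPM in knockouts and 39.4 ± 7.77 CPM in heterozygotes (-0.40 ± 0.15). The median of 13 differentiating spermatogonia genes was 0.17 (0.062 to 0.19 leaving out 1 library), and Ccnd2, a G1 cyclin gene of that list, was at -0.31. The list of late pachytene genes, of which 8 were positive and 10 negative, had a median of -0.016 (0.044 to 0.29 in the fits that leave out 1 library, so its sign turned), and its summed level was 104, 99.8 and 97.9 CPM in knockouts, against 96.5, 90.1 and 95.7 CPM in heterozygotes. In heterozygotes the same sum averaged 1634 CPM at P14 and 8417 CPM at P18. Spermatid genes, 28 tested, summed to 20.5 to 22.7 CPM in knockouts and 17.2 to 19.7 CPM in heterozygotes.

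**Figure D3:**
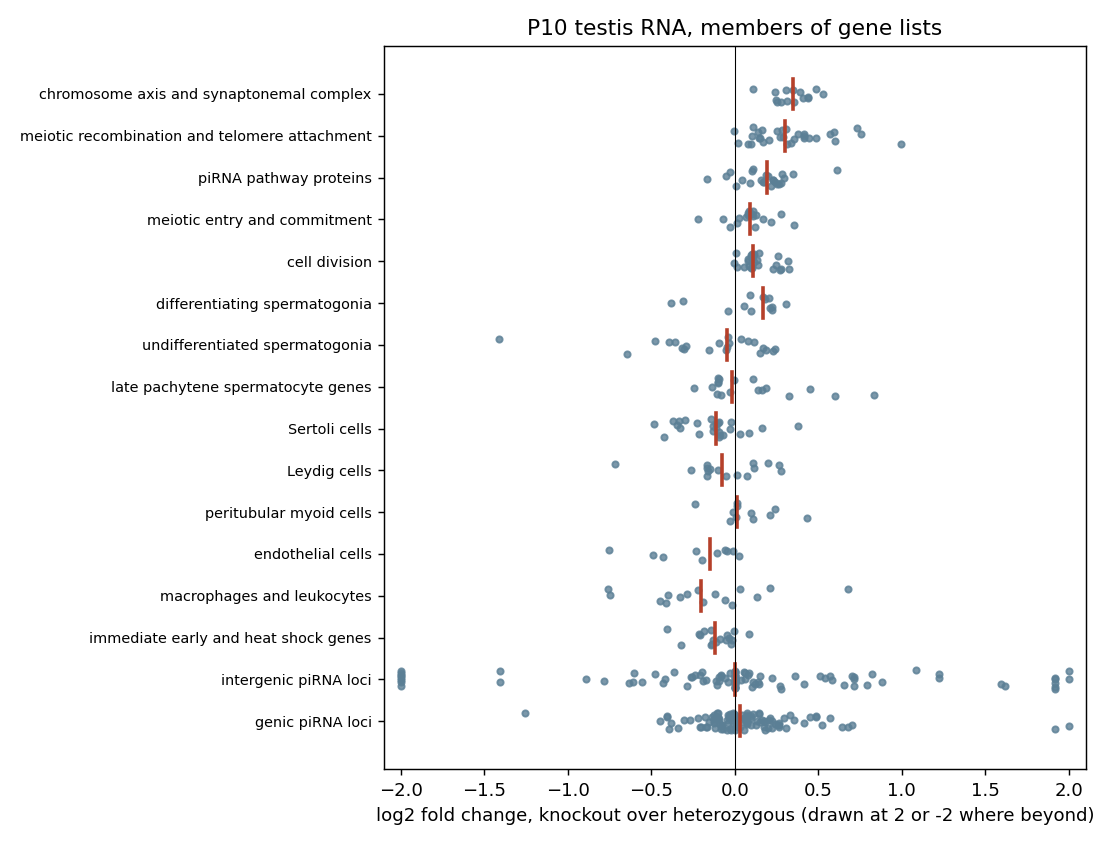
Genotype difference of each tested member of 16 lists in P10 testis (horizontal axis, log2 fold change of knockout over heterozygous; each point is a gene or locus, red bars are list medians). The axis list, median 0.35, and the recombination list, median 0.30, lie to the right of 0, the Sertoli list, median -0.11, lies to the left, and intergenic piRNA loci are centred on 0.00.

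Markers of Sertoli cells, the supporting cells of the seminiferous tubule, lay lower in knockouts, again without passing the test. Of 26 tested, 22 were negative, the median was -0.11 (-0.21 without knockout replicate 1), and 0 against 5 had an unadjusted p below 0.05 (beside 3.67% of all features). Sox9, a transcription factor that specifies these cells, stood at 223, 254 and 223 CPM in knockouts, against 290, 332 and 261 CPM in heterozygotes (-0.33 ± 0.095, adjusted p = 0.515). Dhh, the hedgehog ligand they secrete, stood at 166, 162 and 149 CPM in knockouts, against 179, 232 and 196 CPM in heterozygotes (-0.35 ± 0.10, adjusted p = 0.515). Inhbb, an inhibin and activin subunit gene, stood at 335 ± 24.6 CPM in knockouts and 421 ± 80.4 CPM in heterozygotes (-0.33 ± 0.10). In these 3 genes the groups did not overlap. The summed level of the whole list did overlap, at 9422, 8135 and 8462 CPM in knockouts, against 9078, 10047 and 9456 CPM in heterozygotes, and heterozygous replicate 2 held the highest value. In whole-testis RNA, fewer cells of a type and less RNA per cell cannot be told apart, for the Sertoli list as for the germ cell lists above, and the part of cell composition in these differences was not tested.

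Other cell types were looked at in the same way. Endothelial genes were negative in 9 of 10 with a median of -0.15 and summed to 183 to 209 CPM in knockouts, against 213 to 247 CPM in heterozygotes. Of the 10, 0 lay higher and 3 lower with an unadjusted p below 0.05 (beside 3.83% and 3.67% of all features). The 3 were Kdr, the receptor gene Tie1 (-0.49 ± 0.16) and the adhesion gene Esam (-0.43 ± 0.16). Leydig cell genes had a median of -0.076 and peritubular myoid genes of 0.014, where the actin genes Actg2 (0.43 ± 0.14) and Acta2 (0.24 ± 0.096) lay higher. Macrophage and leukocyte genes had a median of -0.21 over 16 tested (-0.40 without knockout replicate 1, -0.085 without knockout replicate 3). Their lysozyme gene Lyz2 ranged from 19.5 to 41 CPM in knockouts and 25.2 to 79.9 CPM in heterozygotes and overlapped. Immediate early and heat shock genes were negative in 17 of 18 (median -0.12, and -0.029 without heterozygous replicate 2), with Jun at 91.7 ± 3.81 CPM in knockouts and 106 ± 2.15 CPM in heterozygotes (-0.21 ± 0.072) and the phosphatase gene Dusp1 at -0.32 ± 0.12.

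Counts of Crisp1 and Spink8, from the epididymis list, were uneven among the knockout libraries. Of the 4 tested genes of that list, these 2 lay higher in knockouts and 2 lay lower. Whether neighbouring tissue was carried over was not tested. Crisp1, a secreted protein of the epididymis, had 0, 78 and 26 counts in knockouts, against 0, 0 and 0 counts in heterozygotes. Spink8, also of the epididymis, had 1, 26 and 6 counts in knockouts, against 0, 1 and 0 counts in heterozygotes, and the summed epididymis list was 2.6, 14.7 and 5.65 CPM in knockouts, against 1.89, 2.7 and 3.1 CPM in heterozygotes. The sum in knockout replicate 1 lay among those of the heterozygotes, and those of knockout replicates 2 and 3 lay above them. Mpo, the granule peroxidase of neutrophil precursors, had 38, 1 and 1 counts in knockouts and 0 in each heterozygote, and here knockout replicate 1 stood apart. DESeq2 called Crisp1 and Mpo, each on this uneven footing, while the edgeR test called neither.

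By chromosome, the X had a higher share of genes with a small p in the higher direction than any autosome. Of 656 X-linked genes tested, 56 lay higher in knockouts with an unadjusted p below 0.05 (8.54%) and 5 lower (0.762%), beside 3.83% and 3.67% over all features. On no autosome did the share higher pass 5.11%. The median log2 fold change over X-linked genes was 0.025, 362 were positive and 245 negative, and the summed level was 32372, 31430 and 32779 CPM in knockouts, against 31144, 31243 and 32211 CPM in heterozygotes, which overlap. Rps6ka6, Tex11, Siah1b and Tktl1, described above, are 4 of the 56, and none of the 56 passed the adjusted test. The difference between the X and other chromosomes was described, not tested.

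**Figure D4:**
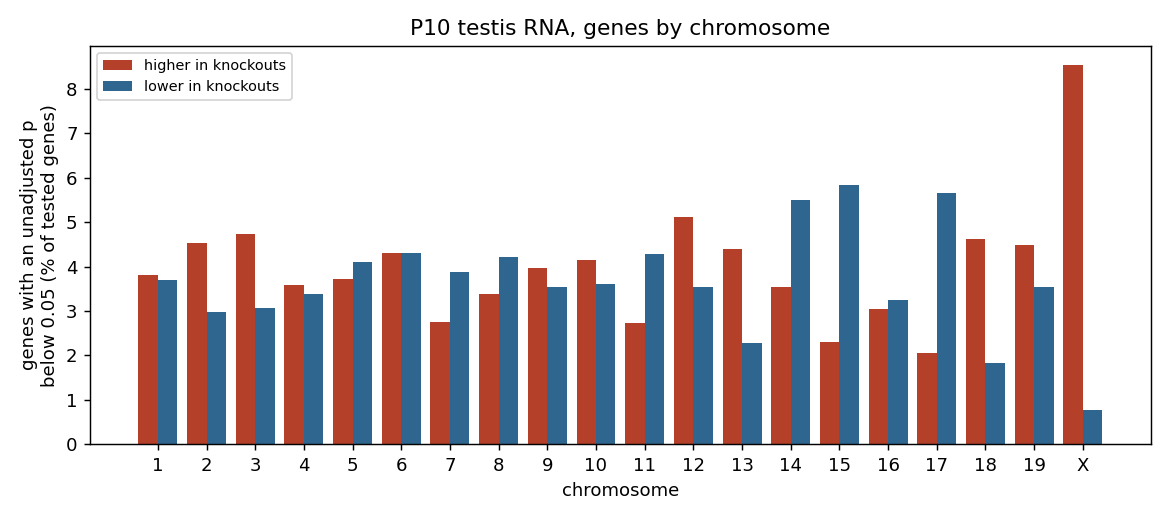
Share of tested genes with an unadjusted p below 0.05 in P10 testis on each autosome and the X (vertical axis, percent; one bar for genes higher in knockouts and one for genes lower). The X has 8.54% higher and 0.762% lower, the widest gap drawn.

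Genes near Btbd18 were examined because a disrupted allele carries its chromosomal surroundings with it. Btbd18 lies on chromosome 2 at 84659072 to 84668789 (build GRCm38.p6). Of 24 other genes tested whose start lies within 1 Mb, 1 lay higher with an unadjusted p below 0.05 and 0 lower (beside 3.83% and 3.67% of all features), and their median was -0.033. That gene, Selenoh (listed as 2700094K13Rik), encodes a selenoprotein of the nucleus and is the next annotated gene, from 84669215 to 84670708. It stood at 35.4, 29.7 and 31.3 CPM in knockouts, against 25.7, 25.9 and 26.5 CPM in heterozygotes (0.31 ± 0.12, adjusted p = 0.603). Within 5 Mb, 2 of 34 lay higher and 0 lower with an unadjusted p below 0.05, and the median of the 34 was -0.01.

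The piRNA loci were mostly low at P10, and no genotype difference among them passed the test. None of the 99 intergenic and 108 genic loci passed the test. An unadjusted p below 0.05 was found for 1 intergenic and 1 genic locus (beside 7.51% of all features). Of intergenic loci 76 averaged below 1 CPM in heterozygotes and 4 above 10 CPM, so for most of them the test could show little at P10. The most abundant, 7-qD2-40, stood at 207, 222 and 232 CPM in knockouts, against 205, 244 and 226 CPM in heterozygotes (-0.031 ± 0.072). The next, 2-qE5-4, stood at 125, 119 and 113 CPM in knockouts, against 122, 144 and 144 CPM in heterozygotes (-0.20 ± 0.12). In both of these the groups overlapped. The others above 10 CPM, 6-qF3-3040 (0.082 ± 0.17) and 6-qF3-1063 (0.27 ± 0.17), overlapped too. For 13-qA5-156 the knockouts lay below the heterozygotes, at 5.89 ± 0.324 CPM in knockouts and 7.08 ± 0.892 CPM in heterozygotes (-0.26 ± 0.20). It was the 1 intergenic locus of 99 with all knockouts below (beside 6.22% of all features), and 2 had all knockouts above (beside 6.1%). The intergenic locus with the smallest p, 1-qC1.3-637, had 14, 25 and 15 counts in knockouts, against 10, 7 and 10 counts in heterozygotes (0.88 ± 0.38, adjusted p = 0.639). All intergenic loci together came to 421, 438 and 445 CPM in knockouts, against 417, 473 and 468 CPM in heterozygotes.

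Genic loci, which lie over genes, held more RNA, 49 of them above 10 CPM. pi-Klhl11 stood at 270 ± 27.6 CPM in knockouts and 269 ± 22 CPM in heterozygotes (0.0067 ± 0.090), and pi-Foxo3 at 202 ± 16 CPM in knockouts and 220 ± 5.4 CPM in heterozygotes (-0.12 ± 0.080). The sum over genic loci was 2628, 2748 and 2763 CPM in knockouts, against 2742, 2825 and 2703 CPM in heterozygotes. pi-Ccrn4l had the smallest p of them, with 44, 49 and 5 counts in knockouts, against 36, 87 and 93 counts in heterozygotes (-1.26 ± 0.42, adjusted p = 0.565). There knockout replicate 3 and heterozygous replicate 1 stood apart from their own groups, and the groups overlapped.

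The features that fell in knockout testes at P14 can be followed back to P10, in libraries that share no sample. At P14, 148 features (0.906%) fell, 56 of them intergenic loci and 90 genes. At P10 the 56 loci had a median log2 fold change of 0.00, with 0 at an unadjusted p below 0.05 (beside 7.51% of all features). They summed to 453, 480 and 456 counts in knockouts, against 365, 374 and 453 counts in heterozygotes. Scaled to library size, the sums were 51.3, 56.3 and 58.6 CPM in knockouts, against 49.3, 48.1 and 56.1 CPM in heterozygotes, which overlap. Of the 56, 50 averaged below 1 CPM in P10 heterozygotes, too little for a fall to be seen there. The 90 genes had a P10 median of 0.077, and the 1 that lay lower with an unadjusted p below 0.05 was Btbd18 itself. Of the 90, 50 averaged below 1 CPM in P10 heterozygotes.

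A test of the difference itself, the genotype effect at P14 minus that at P10, found 7 features (0.0429%), and the same test for P18 minus P10 found 25 (0.153%), 7 of these being intergenic loci. Both tests share the P10 libraries. The P14 count moved whichever library was left out, running from 0 to 23, and the P18 count ran from 12 to 197. The locus 9-qC-10667 had 35, 24 and 39 counts in P10 knockouts, against 18, 37 and 32 counts in P10 heterozygotes. Its log2 fold change was 0.063 ± 0.27 at P10, -2.27 ± 0.23 at P14 and -3.93 ± 0.18 at P18, and the differences from P10 were -2.33 ± 0.36 (adjusted p = 0.0156) and -3.99 ± 0.33 (adjusted p = 9.71e-07). For 6-qD1-2831 the log2 fold change was 0.059 ± 0.20 at P10, -1.66 ± 0.18 at P14 and -2.91 ± 0.12 at P18, with differences of -1.72 ± 0.27 (adjusted p = 0.0156) and -2.97 ± 0.23 (adjusted p = 8.71e-07). These 2 loci had counts enough at P10 for the comparison, at about 3 to 4 CPM in each genotype, and they were the only intergenic loci among the 7. Other loci with such counts were not among them. 10-qB4-6488, at 2.96 CPM in P10 knockouts and 3.35 CPM in P10 heterozygotes, fell at P14 (-1.45 ± 0.25). Its difference from P10 did not pass (-1.28 ± 0.40, adjusted p = 0.316). 6-qF3-3040 and 6-qF3-1063, both above 10 CPM at P10, also fell at P14 and were not among the 7. The fit of P10 and P14 libraries alone, and the one with a replicate block, called 1 and 2 features, with no intergenic locus in either, while at P18 7 intergenic loci and 1 feature in the higher direction were called in both.

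Some P10 values had another sign later, in both directions. The axis list had a median of -0.337 at P14 and 0.0099 at P18, and the recombination list -0.0959 and 0.0019. The list of piRNA pathway proteins had -0.275 and -0.0297. The differentiating spermatogonia list stayed positive, at 0.119 and 0.0557. Over all features the medians were -0.0102 and -0.0129, and none of these turns of a list was tested. Some of the genes that lay lower in knockouts at P10 lay higher later. Palld was at 0.42 ± 0.15 at P14 (difference from P10 1.07 ± 0.19, adjusted p = 0.0302), and Jun at 0.49 ± 0.093 (difference 0.70 ± 0.12, adjusted p = 0.0302). Sox9 was at 0.37 ± 0.10 at P18 (difference 0.70 ± 0.14, adjusted p = 0.0495). Scara5, a ferritin receptor gene that DESeq2 called lower at P10, was at -0.29 ± 0.072 there and at 0.25 ± 0.073 at P18 (difference 0.53 ± 0.10, adjusted p = 0.0428). Palld at P14, and Sox9 and Scara5 at P18, did not pass the test of genotype at that age. None of these 4 differences from P10 was called in the fit of the compared ages alone or with the replicate block, where the adjusted p was 0.102 and 0.0904 for Palld, 0.0887 and 0.0763 for Jun, 0.156 and 0.0723 for Sox9 and 0.0911 and 0.108 for Scara5. Leaving out P14 heterozygous replicate 1 or P14 knockout replicate 2 ended the calls of Palld and Jun too. Leaving out any P10 library ended the call of Jun. It also ended that of Palld, except in the fit without P10 heterozygous replicate 3. Leaving out P18 heterozygous replicate 1 or 2 ended the calls of Sox9 and Scara5, as did some other left-out libraries. Sox9 was also not called under RLE scaling (adjusted p = 0.0581) or with total counts (adjusted p = 0.0533).

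**Figure D5:**
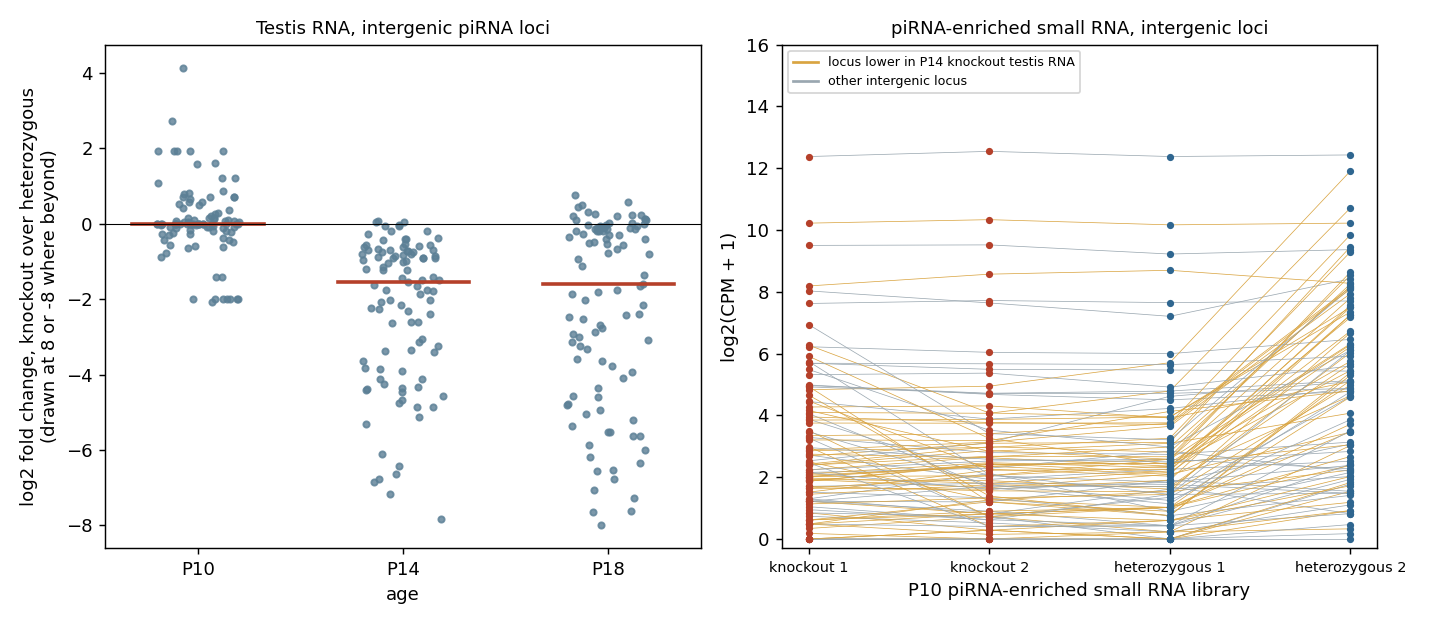
Left, log2 fold change of knockout over heterozygous for the 99 tested intergenic piRNA loci in testis RNA by age (points are loci, red bars medians: 0.00 at P10, -1.53 at P14 and -1.59 at P18). At P10, 76 of the 99 averaged below 1 CPM in heterozygotes. Right, level of intergenic loci in each P10 piRNA-enriched small RNA library (vertical axis, log2 of CPM + 1; lines join a locus across libraries), where heterozygous replicate 2 stands apart.

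Small RNA gave a second readout at P10. In total small RNA, 0 of 10405 features passed the edgeR test (0%), and DESeq2 called 0. The unadjusted p was below 0.05 in 319 (3.07%), of which 171 lay lower in knockouts (1.64%). Intergenic loci took 0.331% and 0.379% of counts in knockouts, against 0.265% and 0.303% in heterozygotes, and genic loci took 1.59% and 1.76% in knockouts, against 1.27% and 1.39% in heterozygotes. miRNA genes took 43.1% and 42.7% in knockouts, against 38.6% and 36% in heterozygotes, and small nucleolar RNA (snoRNA) genes took 36.6% and 36.3% in knockouts, against 44.1% and 43.9% in heterozygotes. None of these 4 shares overlapped between genotypes, but 2 libraries against 2 cannot give an exact permutation p below 0.333. The 4 shares are parts of the same total and not 4 separate results, because a lower snoRNA share by itself makes the others larger. Whether the other shares differ apart from snoRNA was not tested. A fit of the 4 P10 libraries alone called 46 features, 45 of them lower in knockouts (0.755%), and 34 of the 45 are snoRNA genes. The others include the genic locus pi-Tmem194 and the intergenic loci 15-qE1-1119 and 17-qA3.3-26735. The median log2 fold change over intergenic loci was -0.27 with TMM scaling and 0.078 with total counts, so its sign hangs on the scaling. In the enriched libraries snoRNA took 22% and 17% in knockouts, against 21.6% and 15.3% in heterozygotes, where the genotypes overlapped.

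Among the piRNA-enriched libraries heterozygous replicate 2 stood apart. Intergenic loci took 2.14% and 2.25% of counts in knockouts, against 1.98% in heterozygous replicate 1 and 5.29% in heterozygous replicate 2. The locus 17-qA3.3-26735, one of the 5, had 207 and 276 counts in knockouts, against 298 and 30105 counts in heterozygotes. Of 94 intergenic loci with a count elsewhere, 33 were over 10-fold higher in that library than in any other. Of the 33, 32 belong to the loci that fell in P14 knockout testes, beside 56 of all 98 intergenic loci tested in the enriched libraries. No feature of 12858 passed the edgeR test (0%), with or without this library. Over all features, 236 had an unadjusted p below 0.05 (1.84%), 165 of them lower in knockouts (1.28%), and DESeq2 called 5 (0.0251%), all intergenic loci lower in knockouts. The median log2 fold change over intergenic loci was -1.14 with heterozygous replicate 2 and 0.065 without it. In total small RNA of the same age 17-qA3.3-26735 had 203 and 213 counts in knockouts, against 259 and 312 counts in heterozygotes, and the fit of those 4 libraries alone called it lower.

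The locus with most testis RNA, 7-qD2-40, had 40097 and 55336 counts in enriched knockout libraries, against 30993 and 43248 counts in heterozygous ones (0.060 ± 0.59, adjusted p = 1), and 8087 and 10288 counts in total small RNA of knockouts, against 7885 and 7887 counts in heterozygotes (-0.046 ± 0.37, adjusted p = 1). The genic locus pi-Tmem194 lay lower in knockouts in both, with 11 and 20 counts in knockouts, against 34 and 35 counts in heterozygotes in total small RNA (-1.42), and 48 and 104 counts in knockouts, against 106 and 156 counts in heterozygotes in the enriched one (-1.10). Its adjusted p was 1 in both, although the fit of the 4 P10 total small RNA libraries alone called it. The smallest p of the enriched table belonged to Nanos2, a gene of spermatogonial stem cells, with 3 and 6 counts in knockouts, against 26 and 26 counts in heterozygotes (adjusted p = 0.259). Counts over Btbd18 were 4 and 8 in knockouts, against 15 and 17 in heterozygotes in total small RNA, and 47 and 108 in knockouts, against 98 and 90 in heterozygotes in the enriched libraries, where they overlapped.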

How the data were processed

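Testis RNA was sequenced as polyadenylated RNA with a Nextera kit, which does not mark strand, and small RNA after size selection (NEBNext), per the labels' protocols; how piRNA was enriched is not given in the sources used here. Per the submitters' processing notes, cutadapt 1.8.1, TopHat2 2.1 and featureCounts of Subread 1.4.6-p3 were used on mm10. The authors deposited raw counts for genes and piRNA loci, and these were analysed unchanged. Counting settings are not given in the sources used here, so overlapping genes, antisense genes and near-identical copies are uncertain. Symbols were matched to RefSeq on GRCm38.p6 (98.5% of features).

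Each table was fitted whole (20 testis libraries, groups taken from the labels) with edgeR 4.0.16 in R 4.3.3: filterByExpr, TMM scaling, group means, a quasi-likelihood F test and Benjamini-Hochberg adjustment, changed meaning an adjusted p below 0.05. The common biological coefficient of variation of testis RNA was 0.0901. CPM are TMM-scaled. The test was tried on simulated data. Alternatives were DESeq2 1.42.0, other scalings, no low-count filter, fewer ages, a replicate block, and leaving out each library.

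The members, lists and tests were chosen with earlier results of these data known. Named features were drawn from Btbd18, features called by any of 4 fits, and the 12 with the smallest p in each direction. Further sources were the 3 with the smallest p of each list and genes within 1 Mb of Btbd18. The most abundant loci and those with the smallest p were used as well. Not every feature of these groups is named in the text. A few others are named where a count or library calls for it, chosen after their values were seen. Lists are described by counts and medians only, without a set test. Promoter sequences are RefSeq's.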

Additional observations from a re-analysis of the deposited data

Results flagged for a closer look

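The genotype effect differed between ages by a test of the difference for 7 features at P14 against P10 and for 25 at P18 against P10. At P14 the log2 differences from P10 were -2.33 for 9-qC-10667 and -1.72 for 6-qD1-2831, both intergenic piRNA loci. They were 1.85 for Ephb1, 1.4 for Filip1, 1.07 for Palld, 0.70 for Jun and 0.65 for Taf4b. Ephb1, an ephrin receptor gene, stood at 8.2 ± 0.61 CPM in knockouts and 10.3 ± 0.335 CPM in heterozygotes at P10 (-0.33 ± 0.17) and was at 1.52 at P14. Filip1, a filamin-interacting protein gene, stood at 9.18 ± 0.166 CPM in knockouts and 9.1 ± 0.767 CPM in heterozygotes at P10, with a log2 fold change of 1.41 at P14. Taf4b was at 0.24 at P10 and 0.89 at P14. Ephb1 and Filip1 were named because they complete the 5 genes of that count. At P18 the log2 differences from P10 were -3.99 for 9-qC-10667, -2.97 for 6-qD1-2831, -4.67 for 15-qD1-4001, 0.70 for Sox9 and 0.53 for Scara5. 15-qD1-4001 had 6, 2 and 2 counts in P10 knockouts, against 5, 4 and 3 counts in P10 heterozygotes, so its P10 value carries a wide error (-0.37 ± 0.67).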

How the results depend on the processing

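The fall of Btbd18 passed under every alternative run. The P10 count of 1 became 5 with no low-count filter (Gas1, Itgam, Rbm46 and Rps3a1 besides Btbd18) and 13 with DESeq2, stayed 1 under RLE scaling, total counts, P10 libraries alone and the replicate block, and ran from 1 to 4 when 1 library was left out; the cause was not tested. Features that differ at P14 from P10 numbered 7, against 33 with no filter, 85 with DESeq2, 1 with those ages alone, 2 with the replicate block and 0 to 23 leaving out 1 library (0 without P14 heterozygous replicate 1 or knockout replicate 2, 23 without P14 knockout replicate 1). At P18 against P10 they numbered 25, against 85, 175, 11 and 16 in the same order and 12 to 197 leaving out 1 library (197 without P18 knockout replicate 2, 88 without P18 heterozygous replicate 3). In small RNA the count of 0 became 6 with no filter and 46 with P10 libraries alone, and 0 to 1 leaving out 1 library; in enriched small RNA it became 16 with no filter, 5 with DESeq2 and 1 with P10 libraries alone, and stayed 0 in both tables with the replicate block.

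Replicate numbers were not treated as pairs in the main fit. Deviations of same-numbered P10 testis libraries correlated at 0.0529, 0.0748 and 0.027. No differently numbered libraries were set beside them, so these values cannot settle whether the samples were paired. Of 847 values for 71 named features besides Btbd18, 830 kept their direction and 17 reversed. Leaving out 1 library, the log2 fold change ran from -0.10 to 0.026 for 7-qD2-40, -0.022 to 0.18 for 6-qF3-3040, -0.17 to 0.27 for 9-qC-10667, -0.083 to 0.15 for 6-qD1-2831, -0.053 to 0.067 for Filip1 and -0.084 to 0.079 for pi-Klhl11, which also turned under RLE scaling (-0.003) and DESeq2 (-0.0024). Of the named differences from P10, that of Ephb1 was called in 14 of 16 alternatives, those of Palld, Jun, Filip1 and Taf4b in 5 each, 9-qC-10667 in 10 and 6-qD1-2831 in 7. At P18 both loci were called in 18 of 18, 15-qD1-4001 in 16, Scara5 in 11 and Sox9 in 6. Of intergenic loci 76 of 99 averaged below 1 CPM in heterozygotes, and of genic loci 10 of 108.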

Other observations

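Gdf9, an oocyte growth factor gene named after its values were seen, followed H1foo and Btg4. Its levels were 3.28, 0.469 and 1.16 CPM in knockouts, against 4.59, 3.48 and 4.58 CPM in heterozygotes (-1.33 ± 0.39, adjusted p = 0.515), and it was the third of the genes called beside Btbd18 when knockout replicate 1 was left out.

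Foxc2, a gene of undifferentiated spermatogonia, stood at 9 ± 2.38 CPM in knockouts and 12.6 ± 1.46 CPM in heterozygotes (-0.48 ± 0.19), and Crabp1, a retinoic acid binding protein gene of differentiating spermatogonia, at 59.8 ± 3.16 CPM in knockouts and 51.3 ± 1.63 CPM in heterozygotes (0.22 ± 0.088). Neither passed the adjusted test. Cdc25c, a phosphatase gene counted among late pachytene genes and also used in mitosis, stood at 13.3 ± 0.685 CPM in knockouts and 9.77 ± 0.382 CPM in heterozygotes (0.45 ± 0.15, adjusted p = 0.573). Genes of transcription elongation by RNA polymerase II, 29 tested, had a median of 0.049 (-0.027 without knockout replicate 2). Of 18 genes of BTB domain transcription factors, which share a fold with Btbd18, 7 had all knockout libraries below all heterozygous ones (beside 6.22% of all features). With an unadjusted p below 0.05, 4 lay lower and 1 higher (beside 3.67% and 3.83% of all features). The median was -0.047 (-0.12 to -0.0084 leaving out 1 library). Zbtb16 and Bcl6b belong both to this list and to that of undifferentiated spermatogonia, where 14 of 22 were negative. p53 targets, 18 tested, had a median of -0.079 (-0.13 to -0.0072 leaving out 1 library) and interferon-stimulated genes, 17 tested, of 0.049 (0.0045 to 0.14). Medians of lists with few tested genes hung on single libraries. That of 11 adipocyte genes was -0.53 (-0.19 without heterozygous replicate 3, -0.26 without knockout replicate 1), that of 4 epididymis genes 2.13 (-0.39 without knockout replicate 2), and that of 3 skeletal muscle genes 0.60 (0.20 without heterozygous replicate 3, 1.07 without heterozygous replicate 2). Red blood cell genes summed to 8.35 to 18 CPM in knockouts and 6.05 to 9.46 CPM in heterozygotes, and 8 Y-linked genes had a median of 0.12 (0.019 without knockout replicate 1). Mitochondrial DNA genes were not analysed here.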
